A study of Mus musculus with 9 samples.

Results

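Expression of genes that mark tanycytes and of secretory genes of the ventricular lining was followed in the mediobasal hypothalamus after deletion of Snord116. The genes were chosen by name: Rax, Dio2 and Col23a1, which mark tanycytes, Crym, which encodes a thyroid hormone binding protein, Ttr, which encodes the carrier transthyretin made in choroid plexus, and Ptgds, which encodes prostaglandin D synthase and was included because its values are lower in AAV-Cre tissue. Of these 6 genes, 3 are described here, Dio2, Col23a1 and Ptgds, among 13588 entries in the table. Rax, Crym and Ttr were not analysed here. All 9 mice were males homozygous for the floxed Snord116 allele (B6(Cg)-Snord116tm1Uta/J, strain given as C57/BL6), injected stereotaxically in the mediobasal hypothalamus as adults and studied 10 weeks after the injection. The 3 AAV-GFP mice received AAV7 with GFP under a CMV promoter, and the 6 AAV-Cre mice AAV7 with Cre under a CAG promoter. Promoter and transgene therefore changed together, and so did viral titer, which the study's methods give as higher for AAV-Cre. Neither virus is restricted to a cell type by its promoter. The AAV-Cre mice comprise 3 labelled obese and 3 labelled nonobese. The sample titles assign the word obese the other way round, and the weight label is used throughout, so the direction of every difference between the AAV-Cre groups rests on that label.

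Tanycytes are radial glia-like cells in the floor and lower walls of the third ventricle. Their processes reach the arcuate and ventromedial nuclei and the median eminence. They take up thyroxine and convert it to triiodothyronine through type 2 deiodinase, the product of Dio2, which astrocytes also make. Col23a1 encodes a transmembrane collagen. Prostaglandin D synthase, the product of Ptgds, makes prostaglandin D from prostaglandin H, is secreted into the cerebrospinal fluid as a carrier of small lipophilic molecules, and is made mainly by leptomeninges, choroid plexus and oligodendrocytes.

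The libraries were made from laser-captured sections. Their reads summed over the 13588 entries, not all reads sequenced, numbered between 3929672 and 5766994, with a median of 4611358. Signal is used here for the deposited unit, reads divided by a library size scaled by the TMM method and expressed as for CPM, and 3 reads, taken as the detection floor, correspond to a signal between 0.525 and 0.786 (counting error only). Reads of the gfp transgene numbered 317 to 350 in AAV-GFP mice and 0 in AAV-Cre mice. Reads of cre numbered 0 to 5 in AAV-GFP mice and 19611 to 37704 in 4 AAV-Cre mice, but 5912 in mouse 1 and 1011 in mouse 3 of those labelled obese. The 17 genes of the Snord116 cluster were not analysed here. The same mice, 1 and 3 labelled obese, stood apart in microglial and immune genes, with a summed signal of 16 such genes of 6303 and 8625 against 233 to 411 in the other mice. Markers of the captured nuclei also varied. Pomc, a marker of the arcuate nucleus, had reads in every mouse and Agrp was at 0 in mice 1 and 3 labelled obese, while Nr5a1, a marker of the ventromedial nucleus, was at 0 in AAV-GFP mouse 3, in mice 1 and 3 labelled obese and in mouse 3 labelled nonobese. In tissue of this kind, fewer cells of a type and less RNA per cell cannot be told apart.

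By GENCODE M21, Dio2 (ENSMUSG00000007682) lies on the minus strand of chromosome 12, at 90724552 to 90738438 of GRCm38, and its exons cover 5815 bases. It overlaps the long noncoding RNA gene Gm26512 on the opposite strand. The strand setting of the counting is not given in the sources used here, so it is not known how reads in the overlap were counted. Col23a1 (ENSMUSG00000063564) lies on the plus strand of chromosome 11 (51289920 to 51583918, 5736 exon bases), and Ptgds (ENSMUSG00000015090) on the minus strand of chromosome 2 (25466709 to 25470046, 1649 exon bases). The start-site regions of all 3 genes, matched by symbol in RefSeq and read on GRCm38.p6, are shown so that the sequence behind the 3 measured genes can be compared. Each runs from 250 bases before the start to 50 bases after it, at chr12:90738989-90739288 for Dio2 (minus strand), chr11:51289670-51289969 for Col23a1 (plus strand) and chr2:25469700-25469999 for Ptgds (minus strand). Capitals mark exact matches of 4 motifs searched on both strands.
Dio2: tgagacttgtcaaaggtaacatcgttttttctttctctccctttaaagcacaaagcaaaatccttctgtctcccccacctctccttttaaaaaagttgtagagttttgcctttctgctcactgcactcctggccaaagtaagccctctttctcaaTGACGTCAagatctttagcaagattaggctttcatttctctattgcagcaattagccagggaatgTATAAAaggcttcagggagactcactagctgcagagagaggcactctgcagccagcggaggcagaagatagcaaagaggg
Col23a1: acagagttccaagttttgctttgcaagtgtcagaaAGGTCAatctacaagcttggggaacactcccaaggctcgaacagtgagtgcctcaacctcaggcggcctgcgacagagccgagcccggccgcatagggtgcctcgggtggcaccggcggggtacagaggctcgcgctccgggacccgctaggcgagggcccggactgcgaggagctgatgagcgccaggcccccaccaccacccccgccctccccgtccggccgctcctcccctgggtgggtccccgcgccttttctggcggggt
Ptgds: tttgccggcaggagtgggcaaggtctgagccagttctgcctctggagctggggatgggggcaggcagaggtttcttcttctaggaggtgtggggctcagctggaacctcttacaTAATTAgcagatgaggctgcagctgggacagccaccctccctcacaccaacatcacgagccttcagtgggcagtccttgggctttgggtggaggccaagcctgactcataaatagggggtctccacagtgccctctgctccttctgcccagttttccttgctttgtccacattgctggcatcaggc
The Dio2 region holds a cAMP response element (TGACGTCA), whose first base lies 95 bases before the start, and a TATA box (TATAAA) at 30 bases before it. Among 32851 RefSeq regions of the same length, 1.79% hold the first and 13.6% the second. The Col23a1 region holds a nuclear receptor half-site (AGGTCA) at 215 bases before the start, a motif found in 16.3% of the regions. The Ptgds region holds a homeodomain core (TAATTA) at 136 bases, found in 5.29%. The RefSeq start of Dio2 lies 600 bases upstream of the GENCODE gene start, and that of Ptgds lies inside the GENCODE gene. These matches describe the letters in these windows and were not tested for binding.

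The 3 genes differed widely in level. Per kb of exon, the signal in AAV-GFP mice was 1.38 ± 1.01 for Dio2, 2.39 ± 1.40 for Col23a1 and 110.2 ± 84.2 for Ptgds (SD, n = 3). Over all libraries Dio2 had 254 reads, Col23a1 666 and Ptgds 4165, so values of Dio2 carry the largest counting error. All 3 passed the filter on low signal and entered the fit. Dio2 and Col23a1 also varied more from mouse to mouse than most entries of similar signal. The SD of log2(signal + 1) over the 9 mice was 1.32 for Dio2, against a median of 0.97 among the 3971 entries within 2-fold of its mean. It was 0.92 against 0.63 for Col23a1 (5152 entries).

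**Figure D1:**
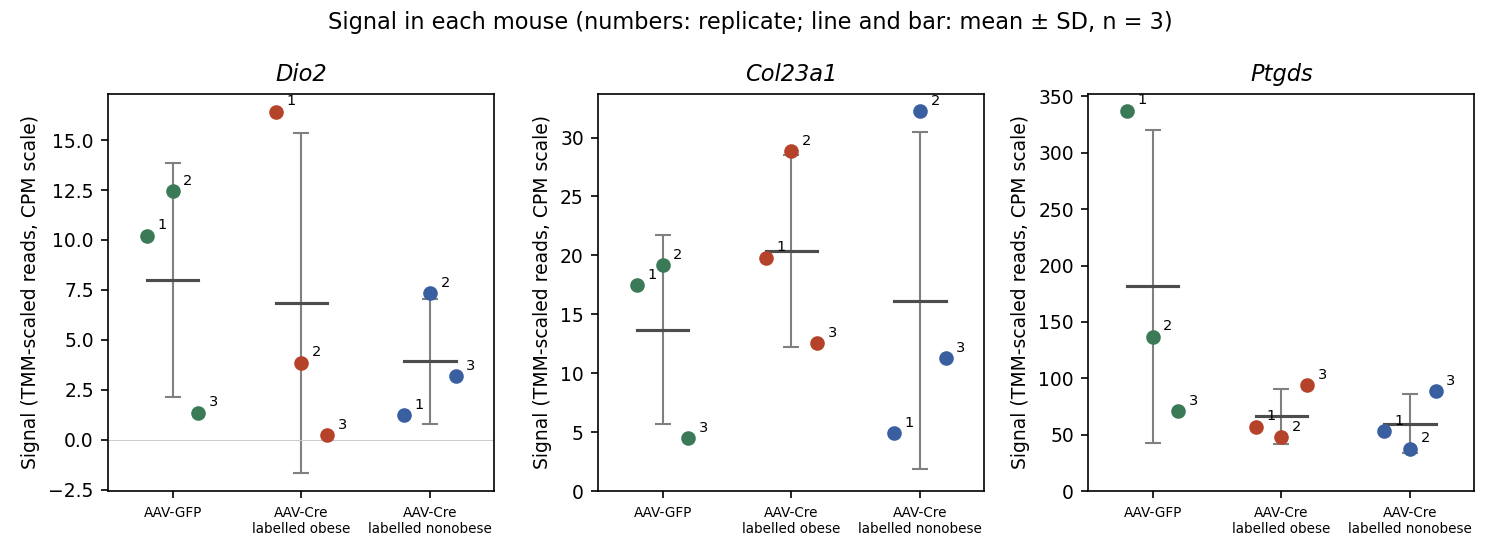
Signal (TMM-scaled reads on the CPM scale, y axis) of Dio2, Col23a1 and Ptgds in each mouse by group, with points numbered by replicate and the mean ± SD (n = 3) as line and bar. Dio2 spans 0.232 to 16.4 within the mice labelled obese, and Ptgds reaches 337 in AAV-GFP mouse 1.

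Dio2, the activating deiodinase, showed no difference between groups that exceeded the spread between mice. Its signal was 10.2, 12.4 and 1.36 in AAV-GFP mice 1, 2 and 3, from 41, 65 and 7 reads. In the mice labelled obese it was 16.4, 3.86 and 0.232, from 73, 17 and 1 reads. In the mice labelled nonobese it was 1.22, 7.33 and 3.20, from 7, 28 and 15 reads. The highest and the lowest of the 9 mice were both labelled obese, and the low mice were spread over all groups. The value of 1 read is below the floor, and the 95% Poisson intervals of the next mice, 0.493 to 2.52 in mouse 1 labelled nonobese and 0.547 to 2.80 in AAV-GFP mouse 3, overlap. Group means were 8.01 ± 5.87 in AAV-GFP mice, 6.84 ± 8.50 in mice labelled obese and, in those labelled nonobese, 3.92 ± 3.12 (SD, n = 3), and no neighbours in this order differed beyond their spread.

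The log2 fold change (log2 FC, on the log2(signal + 1) scale, which understates changes of low genes) of Dio2 was -0.66 (SE 0.82) for all AAV-Cre against AAV-GFP mice in the limma fit, with a 95% interval from -2.37 to 1.05, or 0.194- to 2.07-fold. FDR, the Benjamini-Hochberg adjusted p over 13506 entries, was 0.999. For the mice labelled obese against AAV-GFP the log2 FC was -0.59 (SE 0.94, FDR = 0.882), and for those labelled nonobese it was -0.73 (SE 0.94, FDR = 0.999). The mice labelled nonobese differed from those labelled obese by -0.14 (interval from -2.08 to 1.80, FDR = 0.970). Exact 2-sided permutation tests gave p = 0.7, 0.5, 0.5 and 0.9 for obese against AAV-GFP, nonobese against AAV-GFP, all AAV-Cre against AAV-GFP, and nonobese against obese. These intervals include both a 2-fold change in either direction and no change. Without mouse 3 labelled obese, the mouse with 1 read, the log2 FC of mice labelled obese against AAV-GFP was 0.38.

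Col23a1, the other tanycyte gene, likewise did not differ beyond the spread. Its signal was 17.5, 19.1 and 4.47 in AAV-GFP mice 1, 2 and 3, and 19.8, 28.8 and 12.5 in the mice labelled obese. In the mice labelled nonobese it was 4.90, 32.2 and 11.3, so that this group held the highest mouse and the lowest AAV-Cre mouse. The 6 AAV-Cre mice all lay above AAV-GFP mouse 3, and 3 of them lay above the highest AAV-GFP mouse. Group means were 20.4 ± 8.15 in mice labelled obese, 16.1 ± 14.3 in mice labelled nonobese and 13.7 ± 8.03 in AAV-GFP mice, again with no neighbours apart beyond their spread. The log2 FC for all AAV-Cre against AAV-GFP mice was 0.38 (SE 0.56, interval from -0.77 to 1.54, FDR = 0.999, limma). It was 0.68 (SE 0.63, FDR = 0.771) for the mice labelled obese and 0.08 (SE 0.63, FDR = 0.999) for those labelled nonobese, and -0.60 (SE 0.63, FDR = 0.768) between the latter and the former. Exact permutation p values were 0.56, 0.4, 0.9 and 0.6 in the same order. The sign of the all-Cre difference rests on AAV-GFP mouse 3, without which it was -0.22.

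The tests of Dio2 and Col23a1 can be read against all entries. By FDR under 0.1, 0.555% of the 13506 entries differed between mice labelled obese and AAV-GFP mice, 0.0148% between mice labelled nonobese and AAV-GFP mice, 0.0222% between all AAV-Cre and AAV-GFP mice, and 0.948% between mice labelled nonobese and obese. In none of these comparisons did Dio2 or Col23a1 pass by limma, edgeR or DESeq2, and 0 of them had an unadjusted p under 0.05 in limma. With 3 mice against 3 an exact permutation test cannot give a p below 0.1, and with 6 against 3 not below 0.0119. Adjusted over 9 permutation tests, the 8 on these genes and 1 on Ptgds between the AAV-Cre groups, every p was 0.9.

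**Figure D2:**
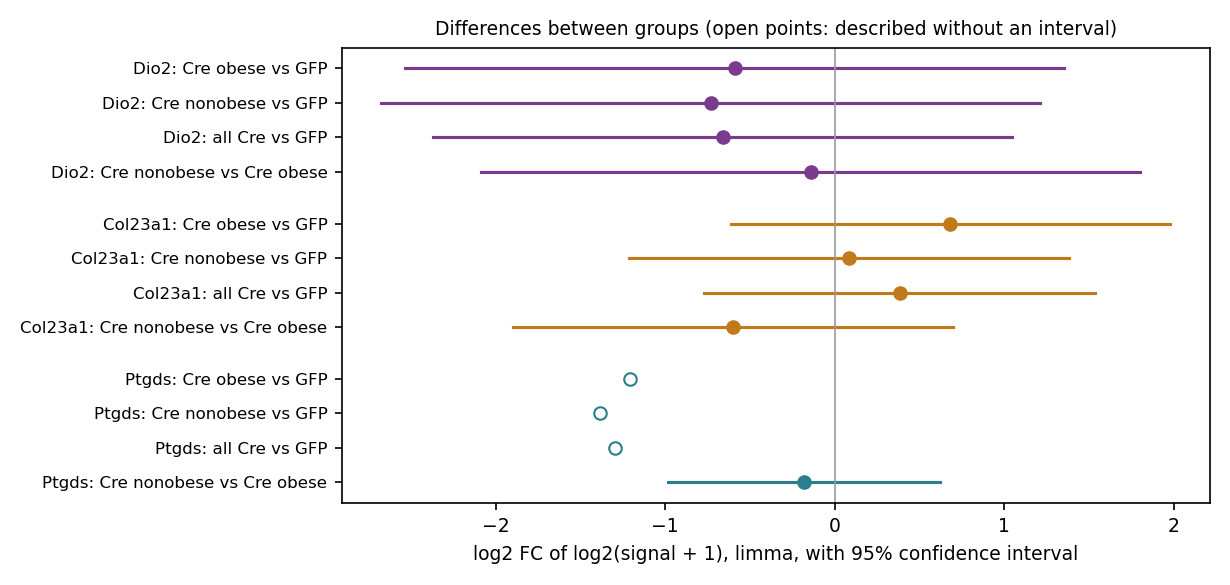
Difference in mean log2(signal + 1) between groups (x axis, log2 FC) for Dio2, Col23a1 and Ptgds (y axis), with limma 95% confidence intervals as lines. Every interval drawn includes 0, and the 3 open points are Ptgds against AAV-GFP, which is described without an interval.

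Ptgds was chosen for its lower values in AAV-Cre tissue, so its difference from AAV-GFP mice is described without a test. Its signal was 337, 137 and 70.7 in AAV-GFP mice 1, 2 and 3, from 1353, 715 and 364 reads. It was 57.1, 48.1 and 94.1 in the mice labelled obese, and 52.8, 37.7 and 88.8 in those labelled nonobese. The groups overlapped, since 2 of the 6 AAV-Cre mice, mouse 3 of each label, lay above the lowest AAV-GFP mouse and 4 lay below it. Group means were 182 ± 139 in AAV-GFP mice, 66.5 ± 24.4 in mice labelled obese and, in those labelled nonobese, 59.8 ± 26.2 (SD, n = 3). The mean of the 6 AAV-Cre mice was 63.1, a ratio of 0.347 to the AAV-GFP mean. On the log2 scale the differences from AAV-GFP were -1.21 for mice labelled obese, -1.39 for those labelled nonobese and -1.30 for the 6 AAV-Cre mice together.

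A single control mouse carried much of this difference. Without AAV-GFP mouse 1 the AAV-GFP mean was 104, the ratio of the AAV-Cre mean to it was 0.608 and the log2 FC for all AAV-Cre mice was -0.71. Without AAV-GFP mouse 3, the lowest control, it was -1.83. With only the 5 mice that had reads of Nr5a1 (AAV-GFP 1 and 2, mouse 2 labelled obese, mice 1 and 2 labelled nonobese), it was -2.21, with AAV-GFP mouse 3 among those left out.

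Between the AAV-Cre groups, a contrast that did not choose the gene, Ptgds showed no difference beyond the spread. The log2 FC of mice labelled nonobese against obese was -0.18 (SE 0.39, interval from -0.98 to 0.62, FDR = 0.903, limma), or 0.507- to 1.54-fold, and the exact permutation p was 0.7. In both groups mouse 3 was the highest and mouse 2 the lowest.

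AAV-GFP mouse 1, the mouse with the most Ptgds, was also the highest of the 9 mice for Dcn and Kl, defining markers of leptomeninges and choroid plexus, at a signal of 17.0 and 21.2. It was also the highest for Fmod (6.23) and Tbx18 (11.7), which were picked from the leptomeningeal list after their values were seen. The leptomeningeal list as a whole did not follow Ptgds. Its 9 genes other than Ptgds, of 24 listed, summed to a signal of 80.6 to 102 in AAV-GFP mice, 57.6 to 165 in mice labelled obese and 43.5 to 66.1 in mice labelled nonobese, with the highest sum in mouse 1 labelled obese. Col1a2, another defining marker of leptomeninges, was 4.99 in AAV-GFP mouse 1, the lowest of the AAV-GFP mice, against 6.32 and 8.55 in the others, 12.7 to 21.1 in mice labelled obese and 1.92 to 7.0 in mice labelled nonobese. No choroid plexus gene with a row other than Kl was highest in AAV-GFP mouse 1. The sum of 6 of 19 choroid plexus genes was 180 to 203 in AAV-GFP mice, 84.6 to 153 in mice labelled obese and 152 to 200 in mice labelled nonobese. Its lower range in mice labelled obese came with Prlr, the prolactin receptor gene, which arcuate neurons also express and which fell by 1.73 (SE 0.36, FDR = 0.0332, limma), a call lost without AAV-GFP mouse 1, without mouse 3 labelled obese and without the 2 mice of high immune genes. The sum of 24 of 25 oligodendrocyte genes was 1562 to 2403, 1173 to 1679 and 1555 to 3326 in the same groups, with Mbp read in every mouse and Mog at 0 in 1 mouse. Its highest mouse was mouse 1 labelled nonobese, where Ptgds was 52.8. The part of these cell types in the Ptgds values was not tested.

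Across the 9 mice, Dio2 and Col23a1 tended to be high in the same mice. Pearson's r of log2(signal + 1) was 0.63 (exact permutation p = 0.0723, adjusted over the 3 pairs 0.217) and Spearman's rho was 0.633 (exact permutation p = 0.076, adjusted 0.228), so the relation did not pass. Without the 2 mice farthest from the median of Dio2, mice 1 and 3 labelled obese, r was 0.77, and for deviations from the group means it was 0.74. Ptgds followed neither gene. For Dio2 and Ptgds r was 0.23 (exact permutation p = 0.578, adjusted 0.868) and rho was 0.10, with r of 0.53 without the same 2 mice. For Col23a1 and Ptgds r was -0.035 (exact permutation p = 0.932, adjusted 0.932) and rho was -0.37, with r of -0.50 without AAV-GFP mouse 3 and mouse 1 labelled nonobese. In the 4 mice without reads of Nr5a1, Dio2 ranged from 0.232 to 16.4 and Col23a1 from 4.47 to 19.8, and in the other 5 Dio2 ranged from 1.22 to 12.4 and Col23a1 from 4.90 to 32.2.

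**Figure D3:**
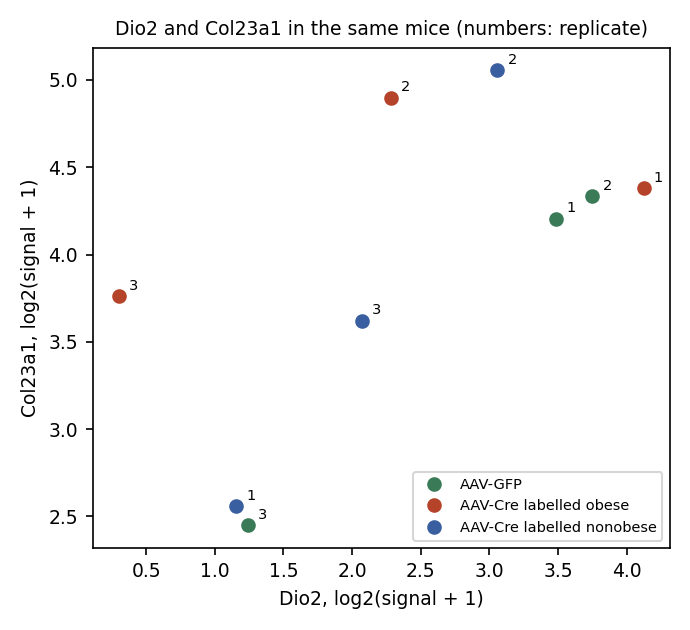
Col23a1 against Dio2 in each of the 9 mice, both as log2(signal + 1), coloured by group and numbered by replicate. The mice run from low in both, AAV-GFP mouse 3 and mouse 1 labelled nonobese, to high in both, with mouse 3 labelled obese at the lowest Dio2 (signal 0.232) and a Col23a1 signal of 12.5.

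The entries whose pattern over the 9 libraries was most like each gene were named by Pearson's r, as a description. For Dio2 they were Cdc40 (r = 0.91), Rad54l (0.91) and Zfp319 (0.91). Col23a1 was followed most closely by Smc1a (0.96), Cmip (0.93) and Foxj3 (0.92), and Ptgds by Dhrs3 (0.93), Aes (0.89) and Nup93 (0.88). None of them is on the tanycyte, thyroid hormone or prostaglandin lists. Dhrs3, which encodes a retinal reductase, was picked by its r with Ptgds, so a peak in the same mouse carries no further weight. Its highest signal, 14.96, was in AAV-GFP mouse 1, against 5.50 to 8.32 in the other mice.

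Of the 27 genes of a wider tanycyte list, 20 had a row. In mice labelled obese against AAV-GFP 10 were higher and 10 lower in mean, with a median log2 FC of 0.10 beside -0.04 over all entries. In mice labelled nonobese 15 of the 20 were lower in mean than in AAV-GFP mice (median -0.37 beside -0.02), and 16 of the 20 were lower than in mice labelled obese (median -0.43 beside 0.02), comparisons that share the mice labelled nonobese. Between mice labelled obese and AAV-GFP mice 1 of the 20 passed, where 0.555% of all entries did. It was Igfbp5, which encodes an insulin-like growth factor binding protein made by several cell types. Its signal was 92.0, 116 and 107 in AAV-GFP mice and 306, 171 and 321 in mice labelled obese, without overlap, a rise of 1.29 (SE 0.23, FDR = 0.0117, limma). For 4 of the 20 genes the ranges of both groups were apart (Lhx2, Slco1c1 and Igfbp5, all higher, and Tgfb2, lower), as was so for 14.5% of all entries. In the mice labelled nonobese, 119, 121 and 85.6, Igfbp5 differed from AAV-GFP mice by 0.04 on the log2 scale (FDR = 0.999) and was below the mice labelled obese (log2 FC -1.25, SE 0.23, FDR = 0.00786).

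Vim, the intermediate filament of tanycytes that reactive astrocytes and microglia also carry, had a signal of 132 and 99.2 in mice 1 and 3 labelled obese and 24.3 in mouse 2. It was 23.7 to 25.9 in AAV-GFP mice and 11.3 to 28.3 in mice labelled nonobese. It passed between the latter and the mice labelled obese (log2 FC -1.85, SE 0.47, FDR = 0.0785, limma) although these groups overlapped. Between these groups 2 of the 20 tanycyte genes passed, Vim and Igfbp5, where 0.948% of all entries did. At an unadjusted p under 0.05 in limma, 1 was higher and 4 were lower in mice labelled nonobese, and 11.4% of all entries reached it. The ranges were apart for 3, all lower, as was so for 13.3% of all entries. The mice high in Vim and Igfbp5 were those with high immune genes and the fewest cre reads among AAV-Cre mice, and in them Gfap, the astrocyte filament gene, was 369 and 640 against 10.1 to 130 elsewhere. Without these 2 mice 0 of the 20 tanycyte genes passed in either comparison, and leaving out mouse 1 or mouse 3 labelled obese alone had the same result. The call of Igfbp5 against AAV-GFP was also lost without AAV-GFP mouse 1, and that of Vim without AAV-GFP mouse 1 or 3 or without mouse 2 or 3 labelled nonobese. Dio2 did not follow these genes, since mice 1 and 3 labelled obese held its highest and its lowest signal.

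Against AAV-GFP mice, 0 of the 20 tanycyte genes passed in mice labelled nonobese by limma, edgeR or DESeq2, with 2 lower at an unadjusted p under 0.05 (Slco1c1 among them) where 2.27% of all entries reached that p, and with no overlap for 3 (all lower, Slco1c1 and Tgfb2 among them) where 9.72% of all entries had none. In all AAV-Cre mice 0 passed by the same tools, with 1 at an unadjusted p under 0.05 (Igfbp5, higher), as had 3.14% of all entries. Tgfb2, encoding a transforming growth factor that tanycytes make, was the gene whose AAV-Cre and AAV-GFP mice did not overlap, where 2.01% of all entries did not. Its signal was 19.5 to 20.8 in AAV-GFP mice and 6.55 to 18.7 in AAV-Cre mice (log2 FC -0.72, SE 0.44, FDR = 0.999). Of the other tanycyte genes, Gpr50, an orphan receptor gene, ranged from 0.786 to 12.4, Scn7a, a sodium channel gene, from 3.20 to 28.1, and Lhx2, a transcription factor gene, from 0.525 to 12.3, from as few as 3 reads for Gpr50 and Lhx2 and 15 for Scn7a. Nes, encoding nestin, ranged from 6.55 to 29.5 and Sox2 from 29.3 to 65.0. Of the ependymal list 7 of 16 genes were covered, none of them a defining marker, and 0 passed in any comparison in limma, with 1 gene (Cfap126, lower) at an unadjusted p under 0.05 between the AAV-Cre groups, where 11.4% of all entries reached it.

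**Figure D4:**
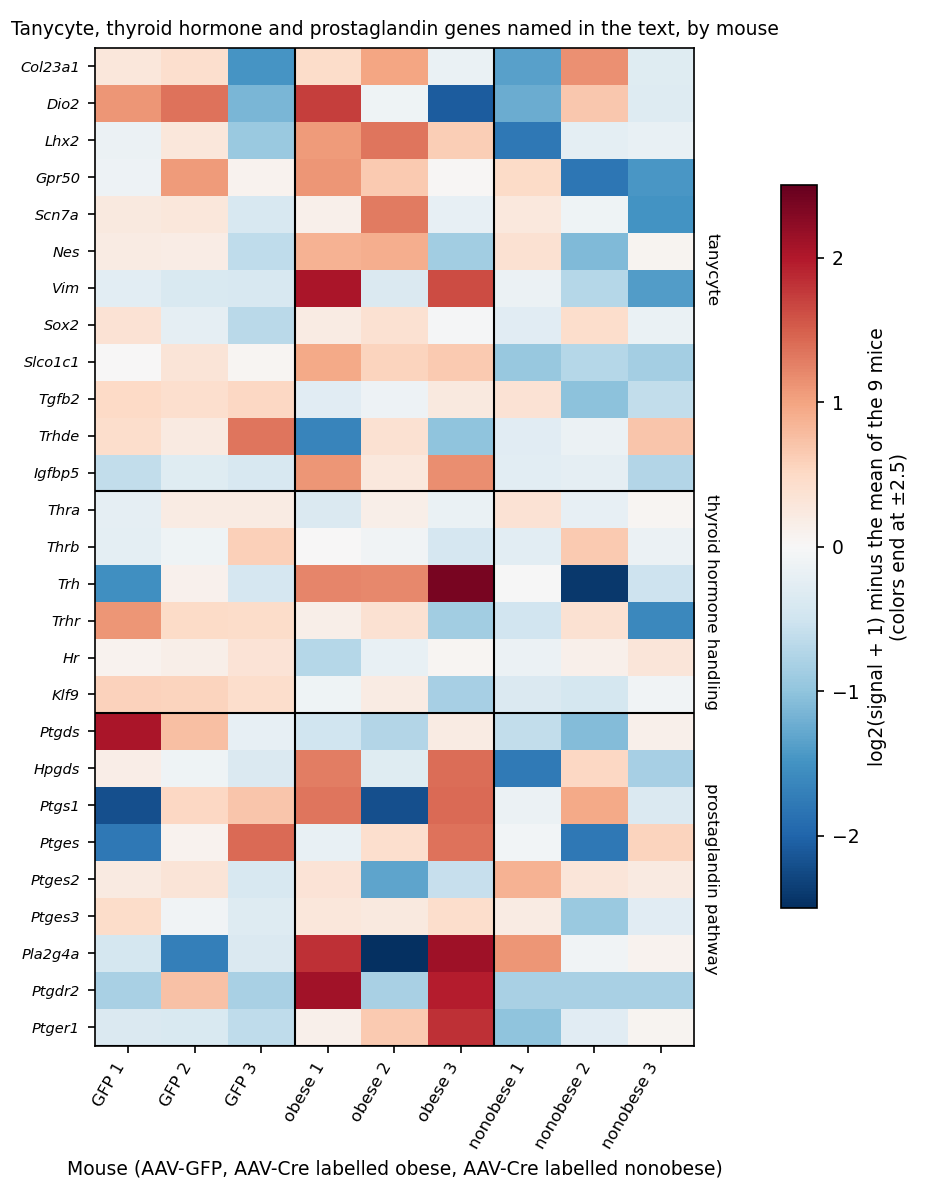
Heat map of log2(signal + 1) minus the mean of the 9 mice (color scale, ends at ±2.5) for the tanycyte, thyroid hormone and prostaglandin genes named in the text (rows) in each mouse (columns, separated by group). Vim and Igfbp5 are high in mice 1 and 3 labelled obese, and Dio2 has high and low mice within every group.

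Dio2 works within a pathway of uptake, activation and response to thyroid hormone, of which 23 of 28 listed genes had a row. None of the 23 passed against AAV-GFP mice by limma in any comparison. At an unadjusted p under 0.05 there were 2 genes in mice labelled obese, 3 in mice labelled nonobese and 1 in both as a single group. The shares of all entries at that p were 9.88%, 2.27% and 3.14%. By edgeR's likelihood ratio test and by DESeq2, 1 gene passed in mice labelled obese and 0 in the other comparisons with AAV-GFP, and by edgeR's quasi-likelihood test 0 passed. The median log2 FC of the list was -0.15, -0.13 and -0.11 in mice labelled obese, nonobese and both as a group, beside -0.04, -0.02 and -0.03 over all entries.

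Among transporters, Slco1c1, which carries thyroxine across brain capillaries and into glia, separated the groups in every mouse. Its signal was 17.5, 22.0 and 18.1 in AAV-GFP mice, 34.4, 26.1 and 28.1 in mice labelled obese, and in those labelled nonobese 8.57, 10.2 and 9.18. No pair of groups overlapped. The largest difference, nonobese against obese, was -1.56 (SE 0.44) with an unadjusted p of 0.0017 and FDR = 0.126 in limma, so it did not pass, and it passed by edgeR's likelihood ratio test and DESeq2 and without mouse 2 labelled obese. Groups did not overlap for 14.5% of all entries between obese and AAV-GFP, 9.72% between nonobese and AAV-GFP, and 13.3% between the AAV-Cre groups. The share of entries apart in every pair at once was not counted. The summed signal of 12 endothelial genes was 161 to 203 in AAV-GFP mice, 232 to 286 in mice labelled obese and 142 to 200 in mice labelled nonobese, with Cldn5, Pecam1 and Cdh5 read in every mouse, and its part in the Slco1c1 values was not tested.

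Between the AAV-Cre groups 1 of the 23 thyroid hormone genes passed by limma, where 0.948% of all entries did. At an unadjusted p under 0.05, 3 were lower in mice labelled nonobese, and 11.4% of all entries reached that p. The ranges were apart for 4 that were lower and 1 that was higher, as was so for 13.3% of all entries. The gene that passed was Trh, which encodes thyrotropin-releasing hormone. Its signal was 30.6, 30.2 and 69.5 in mice labelled obese and 12.6, 1.57 and 8.54 in mice labelled nonobese, without overlap (log2 FC -2.57, SE 0.64, FDR = 0.0699, limma). AAV-GFP mice had 3.74, 13.6 and 9.13, all below the mice labelled obese (log2 FC of the latter 2.21, SE 0.64, FDR = 0.178). The call between AAV-Cre groups was lost without mouse 1 or 3 labelled obese or without mouse 2 or 3 labelled nonobese, and without both mice of high immune genes. Of the 12 marker genes listed for the dorsomedial, lateral and mammillary areas, 9 had a row and summed to 113 to 250 in AAV-GFP mice, 184 to 424 in mice labelled obese and 134 to 793 in mice labelled nonobese. Pmch and Ppp1r17 were read in every mouse, and the part of these areas in the Trh values was not tested.

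Trhr, which encodes a receptor of that hormone, and Klf9, a transcription factor gene that responds to thyroid hormone and glucocorticoids, were the 2 of these 23 genes for which AAV-Cre and AAV-GFP mice did not overlap, as was so for 2.01% of all entries. Klf9 was 42.4, 41.9 and 38.5 in AAV-GFP mice, 26.1, 32.5 and 15.3 in mice labelled obese and 21.7, 20.4 and 26.5 in mice labelled nonobese. Every AAV-Cre mouse lay below every control (log2 FC -0.80, SE 0.32), but with FDR = 0.999 in limma the difference did not pass. Trhr was 10.3 to 16.7 in AAV-GFP mice and 1.71 to 9.76 in AAV-Cre mice (log2 FC -1.02, SE 0.60, FDR = 0.999). Hr, encoding a corepressor induced by thyroid hormone, was 21.4 to 25.8 in AAV-GFP mice, 11.9 to 20.9 in mice labelled obese and 18.2 to 25.0 in mice labelled nonobese. The receptor genes Thra and Thrb overlapped between groups, at a signal of 304 to 499 and 40.9 to 87.0 over all mice. Trhde, which encodes the ectoenzyme that degrades the hormone and is made by tanycytes, was 8.43 to 19.4, 1.57 to 9.53 and 5.60 to 11.9 in the same order of groups, with log2 FC of -1.43 (SE 0.70, FDR = 0.508) in mice labelled obese.

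**Figure D5:**
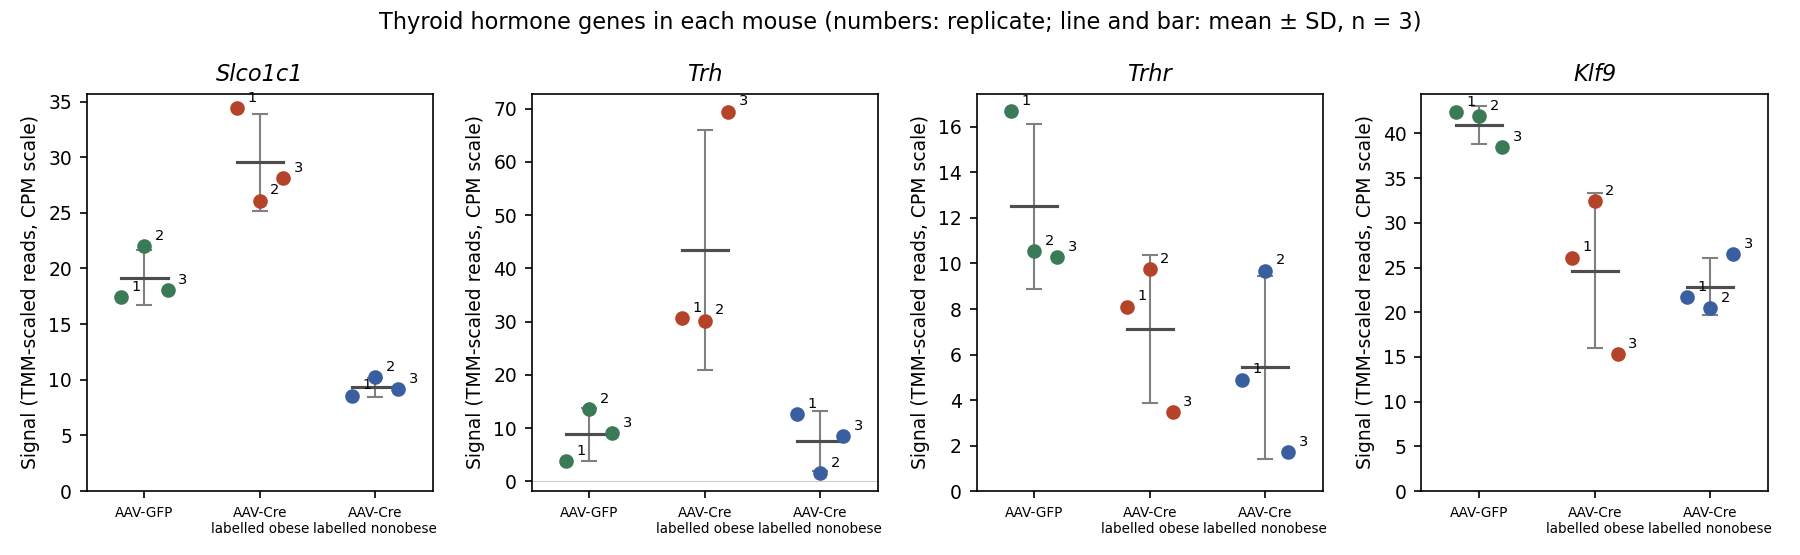
Signal (TMM-scaled reads on the CPM scale, y axis) of Slco1c1, Trh, Trhr and Klf9 in each mouse by group, with points numbered by replicate and the mean ± SD (n = 3). Slco1c1 separates all 3 groups, and Klf9 lies at 38.5 to 42.4 in AAV-GFP mice and at 15.3 to 32.5 in AAV-Cre mice.

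Ptgds belongs to the prostaglandin pathway, of which 16 of 26 listed genes had a row, and none of the 15 others passed against AAV-GFP mice in limma, edgeR or DESeq2. At an unadjusted p under 0.05 there was 1 in mice labelled obese, where 9.88% of all entries reached it, and 0 in the other comparisons with AAV-GFP. Between the AAV-Cre groups 0 of the 16 passed by limma, edgeR's quasi-likelihood test or DESeq2, 1 passed by edgeR's likelihood ratio test, and 3 were lower in mice labelled nonobese at an unadjusted p under 0.05 (Hpgds, Ptges3 and Ptger1), which 11.4% of all entries reached. The median log2 FC of the 15 was 0.51 in mice labelled obese against AAV-GFP and -0.34 in mice labelled nonobese, beside -0.04 and -0.02 over all entries.

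In AAV-GFP mice, the group in which its values are higher, Ptgds was by mean the most abundant enzyme gene of the pathway per length. This order did not hold in every AAV-Cre mouse. In AAV-GFP mice the signal per kb of exon was 34.2 for Ptges3, encoding a prostaglandin E synthase that is also a chaperone partner. The signal per kb was 1.86 for Ptges2, 1.21 for Hpgds, the hematopoietic prostaglandin D synthase of microglia, 1.03 for Ptgs1, a cyclooxygenase gene, and 0.919 for Ptges. Other enzyme genes of the list, not named here, lay between Ptges3 and Ptges2. Hpgds did not follow Ptgds, with a signal of 6.21 to 9.47 in AAV-GFP mice and of 21.6 and 23.7 in mice 1 and 3 labelled obese, the mice with high immune genes, against 6.58 in mouse 2 and 1.75 to 12.3 in mice labelled nonobese. Ptgdr2, a receptor gene for prostaglandin D, was read in those 2 mice (6.52 and 5.81) and in AAV-GFP mouse 2 (1.91), and was at 0 reads in the other 6, which allows a signal of up to 0.786. Ptger1, a receptor gene for prostaglandin E, was 11.9, 17.7 and 40.7 in mice labelled obese and 6.60 to 8.23 in AAV-GFP mice, without overlap (log2 FC 1.33, SE 0.59, FDR = 0.450, limma). Pla2g4a, encoding the phospholipase that releases arachidonic acid, was 19.3 and 24.2 in mice 1 and 3 labelled obese, 0 in mouse 2, 0.766 to 3.50 in AAV-GFP mice and 4.45 to 11.4 in mice labelled nonobese.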

How the data were processed

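RNA of laser-captured mediobasal hypothalamus from 9 mice was sequenced with a stranded low-input kit. Per the submitters' processing notes and the study's methods, reads were processed with CASAVA 1.7, mapped to GRCm38 with TopHat2 2.0.11, counted with HTSeq and analysed with edgeR and limma. The authors deposited signal: reads divided by a TMM-scaled library size, on the scale of CPM. Values were whole multiples of 1 read in 100% of cases (tolerance 0.01 reads), so reads were recovered. The lowest total of an entry was 50 reads, and 13446 of 13586 Ensembl identifiers matched a symbol.

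The fit used limma 3.58.1 under R 4.3.3 on log2(signal + 1) (3 groups, variance trend; 2 groups for all AAV-Cre) over the 13506 entries that reached a signal of 1 in 3 or more libraries. An FDR under 0.1 is a call. Alternatives were pseudocounts of 0.1 and 5, other filters, centring and quantile normalization, the replicate number as a block, edgeR 4.0.16 and DESeq2 1.42.0 on recovered reads, an FDR of 0.05 and leaving out each mouse. Leaving out the immune-high mice or those without Nr5a1 was chosen after seeing the data. Procedures were tested on simulated data with larger changes than those of Dio2 and Col23a1, in entries of higher signal than Dio2. That test does not show the power for these genes. The labels name no batch, and p-values cover the spread between these mice.

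The members and the gene lists were chosen with earlier results of these data known. The genes named are the members, the 3 entries most like each, genes of the thyroid hormone and prostaglandin lists, the first 3 genes of each other list and list genes that passed. Others of the tanycyte list, and Fmod and Tbx18, were named after their values were seen. Some genes of the lists are not reported here.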

Additional observations from a re-analysis of the deposited data

How the results depend on the processing

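With 254 reads of Dio2 in all, its interval against AAV-GFP spanned 0.194- to 2.07-fold. Dio2 and Col23a1 passed under none of the 9 settings that left out a mouse or the 15 others, in any comparison. The same held for Ptgds between the AAV-Cre groups, the only comparison in which it was tested. Signs near 0 turned. With each mouse left out, the log2 FC of Dio2 ranged from -1.53 to 0.38 (obese against AAV-GFP) and from -1.11 to 0.80 (nonobese against obese, 0.19 with a pseudocount of 0.1), that of Col23a1 from -0.57 to 0.67 (nonobese against AAV-GFP, -0.46 without the mice lacking Nr5a1) and from -0.22 to 0.72 (all AAV-Cre, -0.10 without those mice), and that of Ptgds from -0.50 to 0.10 (nonobese against obese, 0.22 without the immune-high mice). Correlations ranged from 0.56 to 0.74 (Dio2 with Col23a1, lowest p = 0.0407, exact permutation), from -0.052 to 0.38 (Dio2 with Ptgds) and from -0.22 to 0.20 (Col23a1 with Ptgds). The cause was not tested.

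In mice labelled obese against AAV-GFP, tanycyte calls (1) ranged from 0 to 4 with a mouse left out, were 0 with no variance trend and without either set of doubted mice, and 2 by edgeR's likelihood ratio test and DESeq2. Thyroid hormone calls (0) ranged from 0 to 1, and were 1 with a pseudocount of 5, the replicate block, the likelihood ratio test and DESeq2. Prostaglandin calls (0) ranged from 0 to 1, and were 1 without the immune-high mice. In mice labelled nonobese against obese, tanycyte calls (2) ranged from 0 to 5, were 1 with a pseudocount of 0.1, the compared groups only or an FDR of 0.05, and 0 with no trend and without either set of doubted mice. Thyroid hormone calls (1) ranged from 0 to 3, were 0 with a pseudocount of 0.1, no trend, the compared groups only, edgeR's quasi-likelihood test, an FDR of 0.05 and without either set of doubted mice, and 2 by the likelihood ratio test and DESeq2. Prostaglandin calls (0) were 1 by the likelihood ratio test and without the immune-high mice. Calls over all entries (75, 2, 3 and 128 in the order of the report) were 200 and 271 with the block for mice labelled obese against AAV-GFP and for nonobese against obese, 275 and 389 by DESeq2, 260 and 398 by the likelihood ratio test, and 5 and 15 with no variance trend. With a mouse left out, the share of entries called in these 2 comparisons ran from 0.0594% (without AAV-GFP mouse 1) to 5.27% and from 0.0149% (without mouse 1 labelled obese) to 6.72%, both highest without mouse 2 labelled obese.

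The replicate numbers name different mice, and the study's methods call the AAV-GFP controls region-matched without naming pairs. Same-number correlations of deviations ranged from -0.02 to 0.09 and different-number ones from -0.09 to 0.04. Of 9 libraries, 6 correlated best with their own number, and the number expected by chance was not computed. Whether mice of the same number share a factor was not tested. The block gave no call of Dio2 or Col23a1, or of Ptgds between the AAV-Cre groups.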
